A study of Homo sapiens with 6 samples.

Results

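The insulin-like growth factor binding proteins IGFBP1 to IGFBP7, the ligand IGF2 and its clearance receptor IGF2R were followed in RNA-seq libraries of the T98G cell line, an established human glioblastoma (GBM) line. The 9 genes were chosen by symbol, with earlier results of these data known, and all 9 were found among the 57133 symbols of the count table. Both groups were CBX8 knockout (KO) T98G cells made with 1 guide RNA and puromycin selection, and both also carried the rtTA3 transactivator. The CBX8 KO group held the empty tetracycline-inducible vector TetO-FUW (3 libraries), and the WT CBX8 re-expression group held the same vector with V5-tagged wild-type CBX8 (3 libraries). All cells received doxycycline, 1 μg/ml for 72 h. The characteristics of the re-expression samples read wild type, while their titles and the study's methods describe CBX8 returned to the KO cells, which is how they were read here. Each group was a stable line transduced and selected on its own, so the presence of CBX8 and the identity of the line cannot be told apart. Whether the KO cells were 1 clone or a pool is not stated. No library of unedited T98G cells was analysed here.

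CBX8 is a chromodomain subunit of Polycomb repressive complex 1 (PRC1), which keeps developmental genes silent. It had 83 to 104 counts in the CBX8 KO libraries and 27791 to 31408 counts upon re-expression, in the direction of the labels. Libraries held 7950190 to 8659796 counts, and 14461 genes had enough counts to be tested. Levels are given as CPM, the count relative to the TMM-adjusted depth of its library. Of the glioma line markers, VIM, CD44 and EGFR were abundant, whereas the neural progenitor marker NES was near absent (means of 0.205 and 0.389 CPM in CBX8 KO and upon re-expression) and SOX2 and S100B had 0 counts. GFAP (means of 1.82 and 2.92 CPM) and OLIG2 (1.78 and 3.22 CPM) were low. Both were higher in all re-expression libraries than in any CBX8 KO library but did not pass (edgeR adjusted p = 0.13 and 0.056). The 2 groups did not overlap in 28.9% of all tested genes. Exons of the antisense genes CCDC103 and FAM187A overlap 40.6% and 35.6% of the GFAP transcript, so its counts are uncertain. Of the glioma line markers 7 of 10 were tested, and TNC was called higher and CD44 lower, beside 6.23% and 6.63% of all tested genes. The sum of the markers, mostly VIM and CD44, was 5855 to 6198 CPM in CBX8 KO and 5570 to 6044 CPM upon re-expression. The part of these markers in the results was not tested. The 12 markers of other cell types (blood, epithelium, endothelium, liver, neuron, oligodendrocyte, muscle and mature astrocyte) summed to 0.757 to 1.41 CPM in CBX8 KO and 1.14 to 2.12 CPM upon re-expression. None of them reached 1 CPM in any library, and ALB, AQP4 and MOG had 0 counts throughout.

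IGF1 and IGF2 are secreted growth factors that signal through the receptor tyrosine kinase IGF1R. Most IGF outside cells is bound to an IGFBP, which prolongs its life, withholds it from the receptor or delivers it at the cell surface, and proteases release it again by cleaving the binding protein. IGFBP1 to IGFBP6 bind IGFs tightly, while IGFBP7 binds them weakly and also binds insulin. IGF2R, the cation-independent mannose 6-phosphate receptor, takes up IGF2 for degradation in lysosomes. In glioma, IGFBPs are studied as secreted regulators of growth and invasion, and IGFBP2 as a marker of high grade.

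The members moved in both directions upon WT CBX8 re-expression. The abundant binding proteins IGFBP3 and IGFBP5 fell to about 0.70 and 0.68 of their CBX8 KO level, and IGFBP4 fell slightly. IGFBP7 rose 1.84-fold, IGF2 rose 1.57-fold from a low level, and IGF2R rose 1.12-fold. The calls of IGFBP4, IGF2 and IGF2R were lost in 3, 4 and 8 of 13 alternative fits. IGFBP2 and IGFBP6 did not pass the threshold, and IGFBP1 was not expressed at a testable level. Of the 8 members tested, 3 were higher and 3 lower at a false discovery rate (FDR) under 0.05 by edgeR's quasi-likelihood test. Over all tested genes 6.23% were called higher and 6.63% lower, 12.9% in all. Since the members were chosen with earlier results known, setting their count beside these shares is a description and not a test. The median log2 fold change of the 8 members was -0.03 and that of all tested genes 0.005. The 3 libraries of one group lay wholly above or below the other 3 in 6 of the 8 members, and in 28.9% of all tested genes. With 3 libraries against 3, an exact two-sided permutation test of a single gene cannot give a p below 0.1, so the calls rest on the variance shared across all genes. Whether libraries of a group came from separate cultures is not stated, and p-values then measure only the spread between these libraries. In RNA from whole cultures, fewer cells with a transcript and less of it per cell cannot be told apart.

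**Figure D1:**
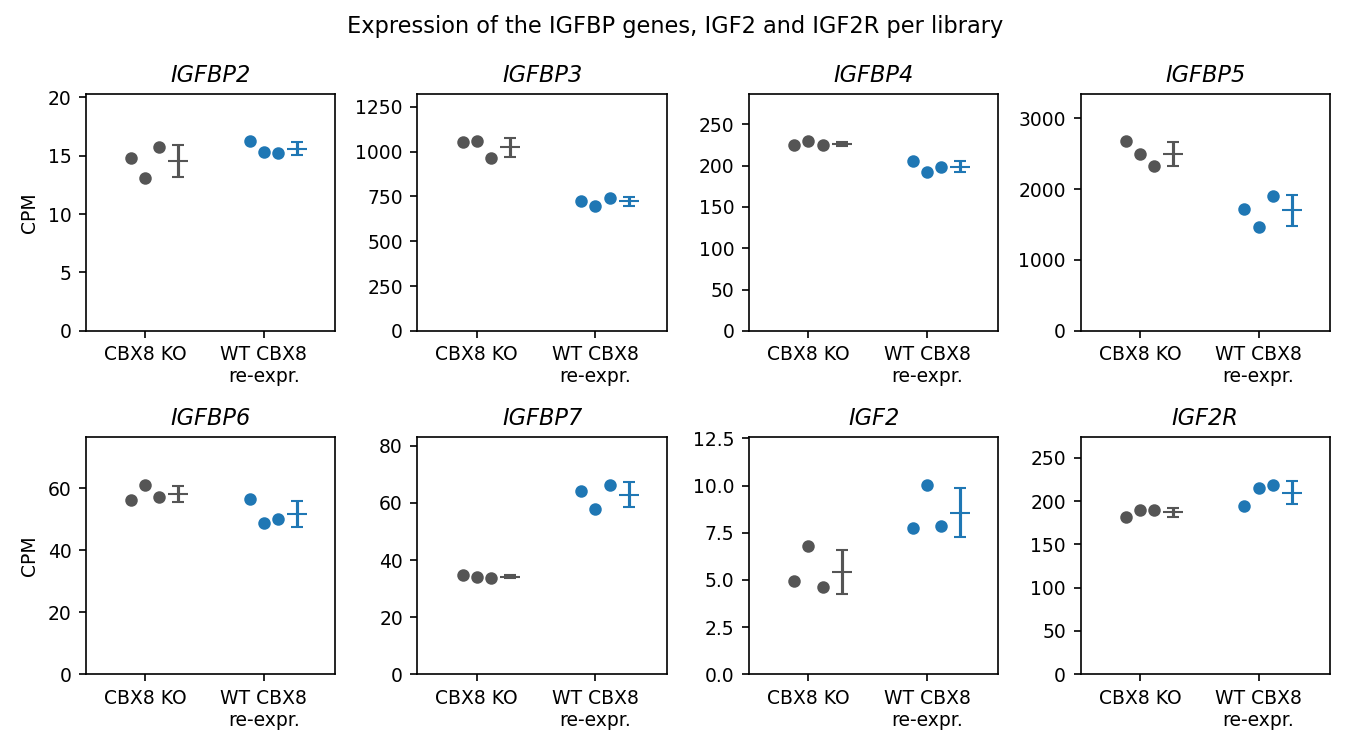
Expression in CPM (vertical axis from 0) in each of the 3 CBX8 KO (grey) and 3 WT CBX8 re-expression (blue) libraries for the 8 members tested. Dots are libraries and the bars beside them the mean ± SD. IGFBP3, IGFBP4 and IGFBP5 sit lower upon re-expression and IGFBP7, IGF2 and IGF2R higher, each with no overlap, while IGFBP2 and IGFBP6 overlap.

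The 3 members that fell are shown first with the DNA before their transcription starts, where each held a different TATA-like hexamer. Windows for 6 of the 9 members were found in RefSeq (GRCh38.p14), and IGFBP1, IGFBP7 and IGF2 had none in the table used. The 250 bases before the start are printed 5′ to 3′ on the strand of the gene, with a TATA-like hexamer in capitals.
IGFBP5 (chr2:216695550-216695799, minus strand): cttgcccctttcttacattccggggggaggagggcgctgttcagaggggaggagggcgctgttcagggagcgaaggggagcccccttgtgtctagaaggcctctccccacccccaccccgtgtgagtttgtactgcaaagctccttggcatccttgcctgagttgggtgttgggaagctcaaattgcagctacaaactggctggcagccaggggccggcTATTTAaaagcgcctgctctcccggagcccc
IGFBP3 (chr7:45921273-45921522, minus strand): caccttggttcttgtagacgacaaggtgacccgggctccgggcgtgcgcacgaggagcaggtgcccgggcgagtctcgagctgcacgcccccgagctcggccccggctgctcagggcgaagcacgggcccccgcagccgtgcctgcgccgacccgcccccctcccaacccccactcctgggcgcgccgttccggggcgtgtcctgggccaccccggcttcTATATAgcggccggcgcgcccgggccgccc
IGFBP4 (chr17:40443200-40443449, plus strand): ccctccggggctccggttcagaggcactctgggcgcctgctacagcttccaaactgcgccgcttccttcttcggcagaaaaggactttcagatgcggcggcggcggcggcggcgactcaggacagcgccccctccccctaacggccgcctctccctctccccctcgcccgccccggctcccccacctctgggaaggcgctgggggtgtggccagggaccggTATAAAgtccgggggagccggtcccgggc
Searches covered both strands and 3 hexamers, the TATAAA found in IGFBP4, the TATATA found in IGFBP3 and the TATTTA found in IGFBP5. As the list holds just the hexamers of these 3 windows, finding them there was fixed by the choice of list. The shares over all windows given below are therefore no test of a difference between members. Other TATA-like sequences were not searched, in these windows or in those of the other members. The match began 31 bases before the start in IGFBP5, 30 bases before it in IGFBP3 and 29 bases before it in IGFBP4. Distances are to the RefSeq start, which for IGFBP5 and IGFBP4 is also the start of the GENCODE gene. For IGFBP3 it lies inside the longer span that GENCODE gives the gene. The RefSeq start of IGFBP6 also lies inside its GENCODE span, which takes in most of the IGFBP6 window. The windows of IGFBP6 and IGF2R and the 3 windows of IGFBP2 held none of the 3 hexamers. Among the 35116 windows in the table, 20.3% held at least 1 of the hexamers on either strand, and 3.45% held one beginning 25 to 35 bases before the start on the strand of the gene, a range chosen after these matches were seen. CG dinucleotides numbered 8 in the IGFBP5 window, 32 in that of IGFBP3 and 24 in that of IGFBP4, against a median of 11. The IGF2R window held 33. The matches describe these letters only, and no binding was measured at them.

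IGFBP5 (ENSG00000115461.5, chromosome 2 from 216672105 to 216695549, minus strand) is a secreted binding protein that also attaches to extracellular matrix. It measured 2672, 2488 and 2328 CPM in the CBX8 KO libraries and 1726, 1465 and 1908 CPM in the WT CBX8 re-expression libraries. The lowest CBX8 KO library lay above the highest re-expression library, and the re-expression libraries were the more spread. Mean levels were 2496 ± 173 CPM with the empty vector against 1700 ± 223 CPM with WT CBX8 (SD, n = 3 each). The log2 fold change of IGFBP5 came to -0.55 ± 0.07 (SE) with an edgeR adjusted p of 1.8e-06. Exons of the antisense gene DIRC3-AS1 overlap 7.81% of its transcript, but that gene had at most 2 counts in a library.

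IGFBP3 (ENSG00000146674.16, chromosome 7 from 45912245 to 45921874, minus strand) is the main IGF carrier of blood. It measured 1053, 1057 and 962 CPM in CBX8 KO and 727, 695 and 743 CPM upon re-expression. All re-expression libraries were below all CBX8 KO libraries, with a gap wider than the range of either group. The means of 1024 ± 53.7 CPM with the empty vector and 722 ± 24.2 CPM with WT CBX8 (SD, n = 3 each) differed by -0.51 ± 0.05 (SE) on the log2 scale, with an edgeR adjusted p of 5.7e-08. Divided by the length of the canonical transcript, the level of IGFBP5 was 1.02 ± 0.04 times that of IGFBP3 in CBX8 KO and 0.98 ± 0.10 times upon re-expression (SD, n = 3 each). That ratio overlapped between the groups, at 0.986 to 1.06 and 0.883 to 1.08.

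IGFBP4 (ENSG00000141753.7, chromosome 17 from 40443450 to 40457725, plus strand) withholds IGFs until it is cut by the protease PAPPA. It measured 224, 229 and 225 CPM in CBX8 KO and 205, 192 and 198 CPM upon re-expression. The groups did not overlap, but the change was small, at -0.19 ± 0.05 (SE) on the log2 scale with an edgeR adjusted p of 0.0088. The call was lost without CBX8 KO replicate 2 (adjusted p = 0.053), without WT CBX8 re-expression replicate 2 (0.084) and with library size scaling (0.072).

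IGFBP7 (ENSG00000163453.11, chromosome 4 from 57030773 to 57110385, minus strand) changed the most of the 8 members tested. Its level was 34.7, 34.0 and 33.8 CPM in the CBX8 KO libraries and 64.2, 58.0 and 66.4 CPM in the re-expression libraries. The CBX8 KO libraries were close together and all re-expression libraries stood far above them. From 34.2 ± 0.49 to 62.9 ± 4.35 CPM (SD, n = 3 each), it gained 0.88 ± 0.07 (SE) on the log2 scale, with an edgeR adjusted p of 2.9e-09. IGFBP7-AS1, a long noncoding RNA on the opposite strand whose gene overlaps the start of IGFBP7 by 624 bases, rose too. It had 49, 41 and 66 counts in CBX8 KO and 116, 121 and 108 counts upon re-expression, which is 1.05 ± 0.16 (SE) on the log2 scale with an edgeR adjusted p of 2.4e-05, and it was singled out after its values were seen. Exons of the canonical transcripts of IGFBP7 share 94 bases with IGFBP7-AS1, 6.59% of the IGFBP7 transcript. The strand setting of the counting is not stated, so reads in that stretch cannot be assigned to one or the other, and their part in either change was not tested. At its other end, 260 bases of the IGFBP7 transcript (18.2%) overlap exons of POLR2B, which encodes an RNA polymerase II subunit. POLR2B was at 185 ± 8.56 CPM with the empty vector and at 180 ± 4.52 CPM with WT CBX8 (SD, n = 3 each), with a log2 fold change of -0.05 (edgeR adjusted p = 0.64).

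IGFBP6 (ENSG00000167779.9, chromosome 12 from 53097436 to 53102345, plus strand) prefers IGF2 to IGF1. It measured 56.3, 61.2 and 57.1 CPM in CBX8 KO and 56.4, 48.8 and 50.0 CPM upon re-expression. WT CBX8 re-expression replicate 1 lay within the CBX8 KO range and the other two below it. The log2 fold change was -0.17, with a 95% interval from -0.32 to -0.03 before adjustment and an edgeR adjusted p of 0.12. Without that library it was -0.24 (adjusted p = 0.046).

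IGFBP2 (ENSG00000115457.10, chromosome 2 from 216632828 to 216664436, plus strand) lies beside IGFBP5, with 7668 bases between the ends of the 2 genes, which are transcribed toward each other. It had 117, 110 and 123 counts in CBX8 KO and 138, 134 and 128 counts upon re-expression. In CPM the groups overlapped, at 14.8, 13.1 and 15.7 against 16.2, 15.3 and 15.2. The log2 fold change was 0.10, with a 95% interval from -0.13 to 0.34 (edgeR adjusted p = 0.62). That interval does not reach the log2 fold change of its neighbour IGFBP5, whose own interval runs from -0.70 to -0.41.

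IGFBP1 (ENSG00000146678.10, chromosome 7 from 45888360 to 45893660, plus strand), a binding protein made mainly by liver and decidua, lies 18584 bases from IGFBP3. It had 0 counts in 5 libraries and 1 count in WT CBX8 re-expression replicate 2, and did not pass the filter on low counts. A count of 0 allows up to 3 counts, which is 0.343 to 0.384 CPM in these libraries and covers counting error only.

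**Figure D2:**
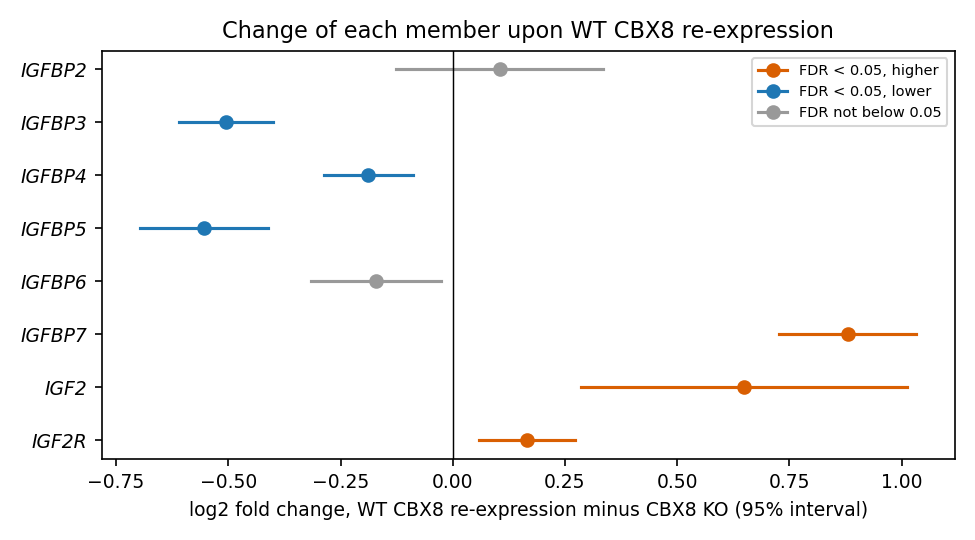
Log2 fold change of WT CBX8 re-expression minus CBX8 KO (horizontal axis) for the 8 members tested, with bars for the 95% interval before adjustment. IGFBP3, IGFBP4 and IGFBP5 (blue) lie below 0 and IGFBP7, IGF2 and IGF2R (orange) above it at FDR < 0.05, while IGFBP2 and IGFBP6 (grey) did not pass.

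IGF2 (ENSG00000167244.22, chromosome 11 from 2129112 to 2158391, minus strand), an imprinted growth factor gene, was the lowest of the tested members. It had 39, 57 and 36 counts in CBX8 KO and 66, 88 and 66 counts upon re-expression, or 4.92, 6.77 and 4.61 against 7.76, 10.1 and 7.86 CPM. The groups did not overlap, though CBX8 KO replicate 2 came near the re-expression libraries. On the log2 scale IGF2 gained 0.65 ± 0.18 (SE), with an edgeR adjusted p of 0.014. The call was lost with DESeq2 (adjusted p = 0.064), without CBX8 KO replicate 1 (0.072) or 3 (0.072), and without WT CBX8 re-expression replicate 2 (0.12). The canonical IGF2 transcript shares 998 of its 5580 exonic bases with the readthrough gene INS-IGF2 and 2141 with another annotated protein-coding gene, so reads there could have been left out or split. INS-IGF2 had 0 counts in all libraries, and H19, the neighbouring imprinted noncoding RNA, had at most 3.

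IGF2R (ENSG00000197081.16, chromosome 6 from 159969082 to 160113507, plus strand) measured 181, 190 and 189 CPM in CBX8 KO and 195, 215 and 219 CPM upon re-expression. WT CBX8 re-expression replicate 1 stood only slightly above the highest CBX8 KO library. Its gain was 0.17 ± 0.05 (SE) on the log2 scale with an edgeR adjusted p of 0.036, and it passed in 5 of 13 alternative fits. It was lost with DESeq2 (0.081), with no filter on low counts (0.052) and in the fit blocked on replicate number (0.058). Among the fits that left out 1 library it passed only without WT CBX8 re-expression replicate 1 (0.0090). Without CBX8 KO replicates 1, 2 and 3 its adjusted p was 0.13, 0.081 and 0.054, and without re-expression replicates 2 and 3 it was 0.17 and 0.16. In transcript units, IGF2R exceeded IGF2 14.0 ± 2.63 times in CBX8 KO and 9.84 ± 1.29 times upon re-expression (SD, n = 3 each), as CPM per kilobase of canonical transcript. That ratio was 11.2 to 16.3 in the CBX8 KO libraries and 8.49 to 11.1 in the re-expression libraries, which do not overlap but come close. Since exons of other genes overlap the IGF2 transcript, the size of this ratio is uncertain.

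Levels of different genes are compared here only as CPM per kilobase of the canonical transcript. In CBX8 KO the order was IGFBP5 (400 ± 27.7), IGFBP3 (392 ± 20.5), IGFBP4 (103 ± 1.19), IGFBP6 (61.4 ± 2.78), IGFBP7 (23.9 ± 0.34), IGF2R (13.3 ± 0.36), IGFBP2 (10.3 ± 0.96) and IGF2 (0.97 ± 0.21), each as mean ± SD of 3 libraries, with IGFBP1 at 0. The first pair, IGFBP5 and IGFBP3, did not differ beyond their spread, whereas the libraries of all later neighbours did not overlap. Upon re-expression the order was the same except that IGFBP3 (276 ± 9.24) and IGFBP5 (272 ± 35.7) changed places, again within their spread. IGFBP7 came to 44.1 ± 3.05 and stayed below IGFBP6 at 54.6 ± 4.33 (SD, n = 3 each), with libraries at 40.7 to 46.6 against 51.5 to 59.6.

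Summed over the 7 binding proteins, the level was 990 ± 46.2 CPM per kilobase in CBX8 KO and 748 ± 51.3 upon re-expression (SD, n = 3 each). The libraries ran from 938 to 1027 and from 691 to 790, with no overlap. IGFBP5 and IGFBP3 made up 40.4% ± 1.14 and 39.6% ± 0.59 of that sum in CBX8 KO, and 36.3% ± 2.36 and 37.0% ± 1.35 upon re-expression. The share of IGFBP7 was 2.42% ± 0.09 in CBX8 KO and 5.89% ± 0.0033 upon re-expression. IGFBP4 went from 10.4% ± 0.49 to 12.1% ± 0.62 of the sum although its own level fell, since the larger members fell more. Per kilobase, IGFBP5 exceeded IGFBP7 16.7 ± 0.93 times in CBX8 KO and 6.17 ± 0.40 times upon re-expression. These shares are descriptions and carry no test, and they depend on the transcript lengths taken from GENCODE release 44.

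**Figure D3:**
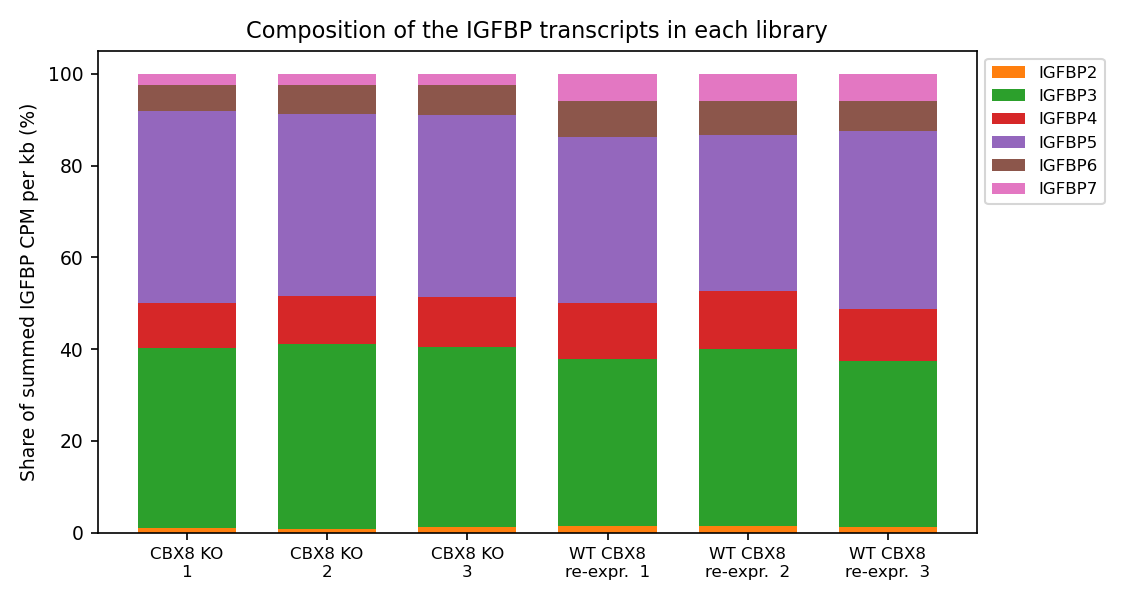
Share of each IGFBP in the summed CPM per kilobase of IGFBP1 to IGFBP7 (vertical axis, percent from 0) in each of the 6 libraries. IGFBP3 and IGFBP5 form most of every bar, and the IGFBP7 segment widens from about 2.42% to 5.89%. IGFBP1 is not drawn.

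The genes around the family were taken in 8 lists of 77 genes, of which 53 were tested, 11 were called higher and 4 lower. Over all tested genes 6.23% were called higher and 6.63% lower, and the lists were chosen with earlier results of these data known. Among IGF ligands and receptors, 2 of 5 genes were tested and neither was called. IGF1 had 0 counts in all libraries, as did insulin (INS), which leaves IGF2 as the only one of these ligands with counts. Exons of other genes overlap 92.0% of the IGF1 transcript and 52.9% of the INS transcript, so reads there could have been left out. IGF1R, the signalling receptor, measured 52.8 ± 2.91 CPM with the empty vector and 54.4 ± 2.03 CPM with WT CBX8 (SD, n = 3 each), or 0.04 in log2 units with a 95% interval from -0.10 to 0.19 (edgeR adjusted p = 0.75). INSR, the insulin receptor, was low at 3.34 ± 0.68 and 3.04 ± 0.70 CPM (SD, n = 3 each) and had a wide interval, from -0.66 to 0.38 (edgeR adjusted p = 0.79). Of the 9 receptor adaptors, 7 were tested and 0 were called, among them the main substrates IRS1 (-0.06) and IRS2 (-0.20). The mannose 6-phosphate pathway, which makes and reads the tag that IGF2R also binds, had 0 of 4 tested genes called.

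The IGFBP proteases and stanniocalcins moved in both directions, with 3 of 10 tested genes higher and 2 lower, beside 6.23% and 6.63% of all tested genes. PAPPA, the protease of IGFBP4, had 3 to 8 counts per library and was not tested. Its secreted inhibitors were abundant. STC1 went from 146 ± 2.77 down to 113 ± 2.17 CPM (SD, n = 3 each), or -0.38 in log2 units (edgeR adjusted p = 7.1e-06), and STC2 rose by 0.17 (adjusted p = 0.017). The STC2 call was lost without CBX8 KO replicate 1 (0.065) or 2 (0.11) and without WT CBX8 re-expression replicate 2 (0.11) or 3 (0.053). MMP2, a gelatinase that can cut IGFBP3 and IGFBP5, went from 973 ± 25.2 down to 647 ± 7.06 CPM (SD, n = 3 each), or -0.59 in log2 units (edgeR adjusted p = 1.3e-09). The plasminogen activators rose, PLAU from 98.3 ± 4.97 to 156 ± 3.098 CPM (log2 fold change 0.67, edgeR adjusted p = 1.3e-09) and PLAT from 2.52 ± 0.44 to 5.18 ± 0.36 CPM (1.03, adjusted p = 0.0022). An antisense gene overlaps 18.3% of the PLAU transcript, so its counts are uncertain, as are those of other overlapped genes. HTRA1, ADAM9, ADAM12, ADAMTS1 and CTSD did not pass.

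Other secreted or membrane proteins with an IGFBP domain were called in 4 of 5 tested cases, 3 higher and 1 lower. Over all tested genes the share called was 12.9%. The matricellular proteins CYR61 and CTGF rose, by 0.29 and 0.59 on the log2 scale (edgeR adjusted p = 0.00013 and 2.2e-05). CRIM1, a membrane protein that binds BMPs, rose by 0.47 (adjusted p = 1.8e-07). WISP1, of the same family as CYR61 and CTGF, went from 58.6 ± 2.22 down to 32.0 ± 1.51 CPM (SD, n = 3 each), or -0.87 in log2 units (edgeR adjusted p = 3.9e-09), close in size and opposite in sign to that of IGFBP7.

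Of the cell-surface partners of IGFBPs, 3 of 4 tested genes were higher and 0 lower, beside 6.23% and 6.63% of all tested genes. LRP1, an endocytic receptor that binds IGFBP3, went from 42.6 ± 1.04 up to 68.8 ± 8.67 CPM (SD, n = 3 each), or 0.69 in log2 units (edgeR adjusted p = 3.9e-07). ITGA5, the alpha chain of the fibronectin receptor, rose by 0.62 (adjusted p = 1.5e-09). Its beta chain ITGB1 was at the threshold, with 0.14 (adjusted p = 0.0497), and lost the call in 10 of 13 alternative fits, among them each of the 6 that left out 1 library (0.071 to 0.16) and the fit with a replicate block (0.11). TMEM219, an IGFBP3 receptor, did not pass.

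Inside the cell, 1 gene of the PI3K-AKT-FOXO pathway was higher and 1 lower of 19 tested. SGK1, a kinase activated through PI3K, went from 20.6 ± 0.60 up to 29.7 ± 1.41 CPM (SD, n = 3 each), or 0.53 in log2 units (edgeR adjusted p = 0.00027). EIF4EBP1, a translation inhibitor that mTOR controls, had a log2 fold change of -0.23 (adjusted p = 0.016). It lost the call with library size scaling (0.081) and DESeq2 (0.052), without CBX8 KO replicate 2 (0.079) or 3 (0.062), and without WT CBX8 re-expression replicate 2 (0.054) or 3 (0.10). AKT1 (-0.0066) and MTOR (-0.07) did not pass. FOXO1 did not pass either (edgeR adjusted p = 0.087), with a log2 fold change of -0.49 and a 95% interval from -0.88 to -0.11 before adjustment. Of the IGF2 mRNA-binding proteins, IGF2BP2 rose by 0.26 (edgeR adjusted p = 0.00053), IGF2BP3 did not pass (-0.12, adjusted p = 0.15), and IGF2BP1 had at most 4 counts. For each list, the count is to be read beside the 6.23% higher and 6.63% lower over all tested genes.

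**Figure D4:**
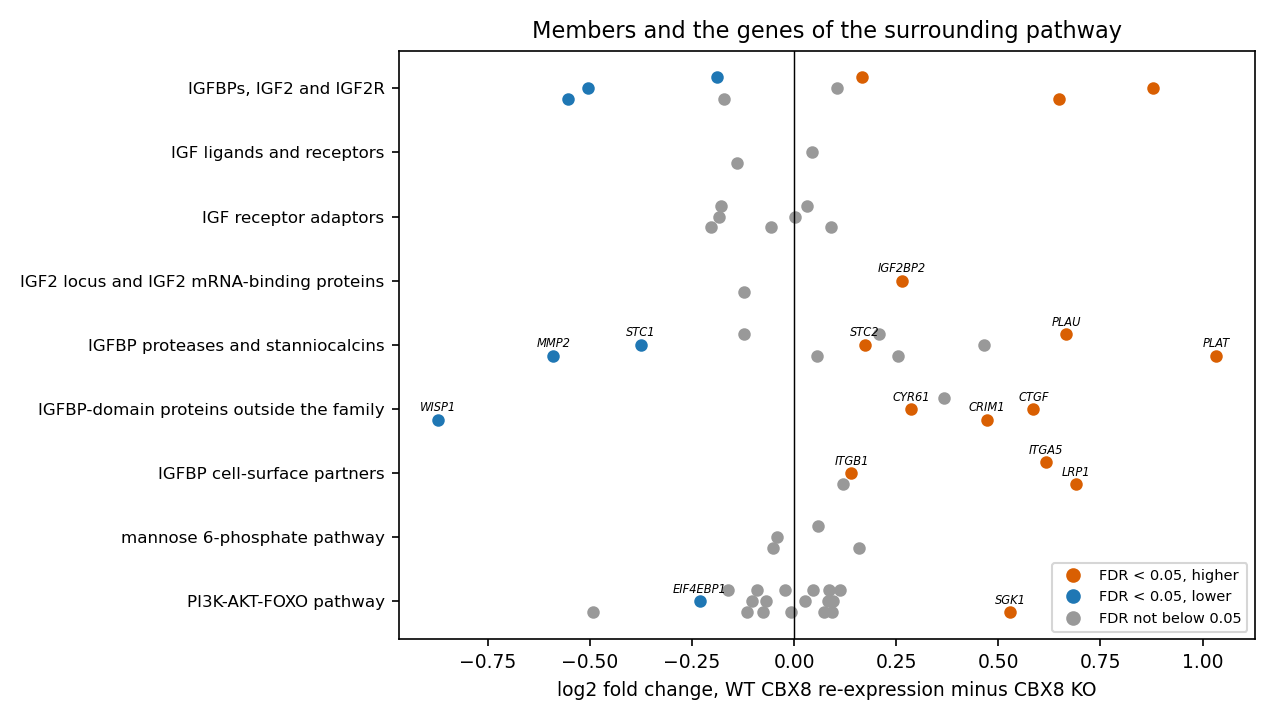
Log2 fold change of WT CBX8 re-expression minus CBX8 KO (horizontal axis) for each tested member and each tested gene of the 8 surrounding lists (rows); dots are genes, spread vertically only for legibility. Orange and blue dots passed FDR < 0.05 as higher and lower, and grey dots did not. Coloured dots mark 5 of 10 proteases and stanniocalcins, 4 of 5 IGFBP-domain proteins and 3 of 4 cell-surface partners, while the 2 receptors, the 7 adaptors and the 4 mannose 6-phosphate genes are grey. Over all tested genes 12.9% passed.

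The gene chosen for a comparison of patterns was IGFBP7, the called member with the largest change. Over the 6 libraries, log2 CPM of PSG4 (Pearson r = 0.997), EPB41L1 (0.996) and TTC7B (0.994) followed it most closely among 13587 other genes. The points fall into 2 groups by design, and 248 genes (1.83%) had an r of at least 0.95. PSG4 belongs to a family of near-identical genes, and its counts are uncertain.

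Across the 13 alternative fits, the directions of all 8 tested members held, and IGFBP3, IGFBP5 and IGFBP7 passed the threshold in each. IGFBP3 ranged from -0.55 to -0.45, IGFBP5 from -0.65 to -0.46 and IGFBP7 from 0.84 to 0.94 on the log2 scale. IGFBP2 passed in none of these fits.

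**Figure D5:**
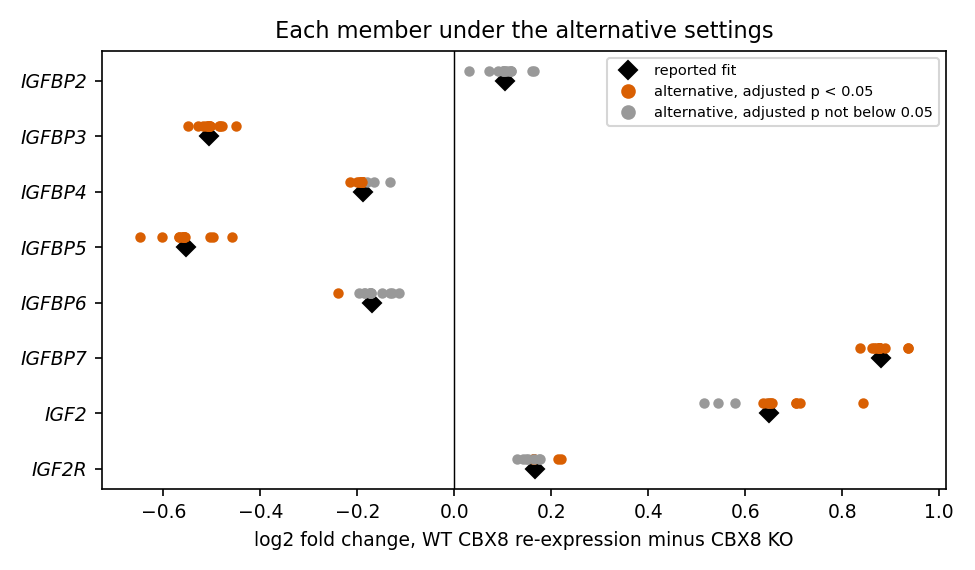
Log2 fold change (horizontal axis) of each tested member in the reported fit (black diamonds) and in the 13 alternative fits (dots, orange where the adjusted p was below 0.05 and grey where not). Dots of IGFBP3, IGFBP5 and IGFBP7 are all orange, those of IGFBP2 all grey, and those of IGFBP4, IGFBP6, IGF2 and IGF2R are mixed.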

How the data were processed

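Poly(A) RNA of 6 libraries was sequenced as 100 bp paired-end reads on the BGISeq500. The authors trimmed reads with Trimmomatic, aligned them to hg38 with HISAT2 and deposited the unscaled count of each gene symbol. The counting program, annotation, strand setting and versions are not given in the sources used here, so reads shared by overlapping genes could be dropped or assigned to either gene, which lowers or mixes their counts. Besides the overlaps given above, exons of another gene cover 62.1% of the CTSD transcript and 35.6% of that of IGF2BP3. Smaller overlaps cover 29.8% of VIM, 23.4% of FOXO1, 22.4% of AKT1 and 11.9% of CTGF, and this is not a full list.

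Groups were taken from sample titles. The default filterByExpr of edgeR 4.0.16 (R 4.3.3) left 14461 genes, which were scaled by TMM. The coefficient for WT CBX8 re-expression against CBX8 KO, the only term, was tested with glmQLFit and glmQLFTest. P-values were two-sided and Benjamini-Hochberg adjusted over all tested genes, with FDR < 0.05 as the threshold. CPM use TMM-adjusted library sizes. The standard error is the absolute log2 fold change over the square root of F. Totals of 7950190 to 8659796 counts set the precision, and reads carry no molecular identifiers. Libraries of a group differed beyond sampling noise (chi-square per degree of freedom 1.96 to 2.90). Gene models and transcript lengths are from GENCODE release 44 on hg38, and no member had a copy matching at least 95% of its transcript on the 261 alternate contigs (minimap2 2.31-r1302).

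The members and gene lists were chosen with earlier results of these data known. The text names CBX8, the 9 members, IGF1, IGF1R, INSR, every called gene of the 8 pathway lists, and the 3 genes of average log2 CPM of at least 1 whose log2 CPM (prior count 2) correlated best with the called member of largest change. Other genes are named as examples or for an overlap. Alternatives were RLE and library size scaling, DESeq2 1.42.0, limma voom (limma 3.58.1), no filter beyond 1 count, at least 1 CPM in 3 libraries, a block for replicate number, and leaving out each library.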

Additional observations from a re-analysis of the deposited data

How the results depend on the processing

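Of 104 alternative fits of the 8 tested members, 88 kept direction and side of the threshold, 15 lost the call, 1 gained it (IGFBP6) and 0 reversed. Of 234 fits of 18 other named genes, 212 kept both, 20 lost the call and 2 reversed, IGF1R without CBX8 KO replicate 2 (-0.0030, from there to 0.075 with 1 library left out) and INSR without WT CBX8 re-expression replicate 1 (0.035, from -0.30 to there), neither called in any fit.

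The number of members higher was 3, and 1 with DESeq2. It ranged from 1 to 3 when 1 library was left out, with 1 (IGFBP7) without CBX8 KO replicate 1, CBX8 KO replicate 3 or WT CBX8 re-expression replicate 2, and the number lower ranged from 2 to 4. Over all genes, the 901 higher and 959 lower became 1400 and 592 with library size scaling. That scaling moved the median log2 fold change of all genes from 0.005 to 0.06. With DESeq2, 502 genes were higher and 695 lower. With 1 library left out, 593 to 792 were higher and 635 to 851 lower, the lowest of both without WT CBX8 re-expression replicate 2. Fits without a library have fewer samples. For DESeq2 and library size scaling, the cause was not tested.

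In the fit with a replicate block, 739 genes were higher and 766 lower, among them 2 and 3 members. Deviations of libraries sharing a number correlated at -0.12, -0.04 and -0.02 over 13588 genes, so the number was not taken to pair them. Depth limits IGFBP1 and IGF2 the most, at up to 1 and 88 counts per library.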
